A study of Homo sapiens with 4 samples.

Results

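The BCL2 family of apoptosis regulators was followed in MDA-MB-231 and SUM159 cells after mebendazole (MBZ). Both are human triple-negative breast cancer (TNBC) cell lines, that is, lines of breast tumours that lack the estrogen, progesterone and ERBB2 receptors. MBZ is an anthelmintic drug that binds tubulin. Each line received 1 μM MBZ or its solvent, DMSO, for 72 h, and 1 library of polyadenylated RNA was sequenced for each of the 4 conditions. Of the 58735 genes in the count table, 10 were chosen by name. They are the anti-apoptotic BCL2, BCL2L1 and MCL1 (3 genes), the effectors BAX and BAK1 (2 genes), and the BH3-only genes BBC3, PMAIP1, BCL2L11, BID and BIK (5 genes). All 10 were matched by Ensembl identifier, and all 10 reached a mean of 10 counts over the 2 libraries of each line. With 1 library per condition there is no replicate check, and an effect of the culture or library cannot be told apart from that of MBZ.

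The 4 libraries held between 17143139 and 24897586 counts on genes. PGR had no count in any library and ESR1 had 1, 0, 2 and 18 counts (in the order MDA-MB-231 DMSO, MDA-MB-231 MBZ, SUM159 DMSO, SUM159 MBZ, which is kept throughout). ERBB2 was detected in every library, with 1216 to 1996 counts. Of 4 leukocyte markers, CD14 had 53, 40, 477 and 110 counts and PTPRC had 8, 23, 216 and 60, while CD3E had 1 count over the 4 libraries together. The summed level of these 4 was 2.82, 3.67, 41.4 and 8.34 CPM, counts scaled to the size of the library. Of 3 endothelial markers, PECAM1 had 328 to 825 counts and CDH5 at most 6, and the 3 summed to between 16.5 and 40.6 CPM. The 15 listed genes of the G2 and M phases summed to 4570 and 2399 CPM in MDA-MB-231 and to 403 and 2063 CPM in SUM159, so their summed level was lower with MBZ in the former line and higher in the latter. The part of these differences in the values of the family was not tested. Less RNA per cell and fewer cells that express a gene cannot be told apart in bulk RNA.

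Proteins of the BCL2 family decide at the outer membrane of the mitochondrion whether a cell starts the intrinsic pathway of apoptosis. BAX and BAK1 form the pores through which cytochrome c leaves, and BCL2, BCL-XL (encoded by BCL2L1) and MCL1 hold them back. BH3-only proteins, which include PUMA (BBC3), NOXA (PMAIP1), BIM (BCL2L11), BID and BIK, insert a short helix, the BH3 domain, into a groove of the anti-apoptotic proteins or bind the effectors directly. In breast cancer cells, BCL-XL and MCL1 are much studied as survival factors, and drugs that disturb microtubules are known to make cells depend on them during a long mitosis. Much of the control of these proteins is not visible in RNA, since MCL1 and NOXA are short-lived, BID is activated by cleavage and BIM is phosphorylated.

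The BH3 core is what the members share. In BH3-only proteins and effectors it is the stretch that enters the groove of a partner. It was located in the coding sequence of each member's canonical transcript (GENCODE release 44, GRCh38) as the codons of a leucine, any 3 residues, a glycine or alanine, and an aspartate, and is printed with the 3 codons that follow. The search gave 1 match in each of the 10 genes. Capitals mark the leucine codon and the codons of the glycine-aspartate pair, which in BBC3 is an alanine-aspartate pair. Each sequence is 27 bases of 1 coding exon, given from 5′ to 3′ on the strand of the gene:
BCL2 (chr18:63318352-63318378, minus strand): CTCcgccaggccGGCGACgacttctcc
BCL2L1 (chr20:31721925-31721951, minus strand): CTGagggaggcaGGCGACgagtttgaa
MCL1 (chr1:150578868-150578894, minus strand): TTAcgacgggttGGGGATggcgtgcag
BAX (chr19:48955787-48955813, plus strand): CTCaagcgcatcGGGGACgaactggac
BAK1 (chr6:33575390-33575416, minus strand): CTCgccatcatcGGGGACgacatcaac
BBC3 (chr19:47226582-47226608, minus strand): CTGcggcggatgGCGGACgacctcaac
PMAIP1 (chr18:59902673-59902699, plus strand): CTCaggagatttGGAGACaaactgaac
BCL2L11 (chr2:111150103-111150129, plus strand): TTGcggcgtattGGAGACgagtttaac
BID (chr22:17739418-17739444, minus strand): CTCgcccaggtcGGGGACagcatggac
BIK (chr22:43127716-43127742, plus strand): CTGgcctgcatcGGGGACgagatggac
Outside this core the proteins differ widely, and their length in the canonical transcripts ranged from 54 residues for PMAIP1 to 350 for MCL1. A match of this pattern is a description of the sequence, and the counts of a gene do not show which of its isoforms, with or without the core, was present.

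Levels between genes were compared as CPM per kilobase of exon, with the exons of all transcripts merged. The order of the genes, their shares and the ratios between genes depend on this length. Merged exons span 2587 bases for BAX and 6222 for MCL1, against 795 and 3950 in the canonical transcripts. With canonical lengths BAX would lie above MCL1 in the DMSO library of each line. The values below are for merged exons. In MDA-MB-231 with DMSO, BCL2L1 was the most abundant member at 163 CPM per kilobase, followed by MCL1 at 57.6, BAX at 47.3, BAK1 at 29.3, PMAIP1 at 15.1 and BID at 13.7. BBC3 (5.35), BCL2L11 (1.60), BCL2 (0.545) and BIK (0.185) lay below these. SUM159 with DMSO had another order, with MCL1 at 65.7, BID at 42.5, BCL2L1 at 35.8, BAX at 33.4, BAK1 at 18.4 and BBC3 at 17.9 CPM per kilobase. PMAIP1 (3.39), BCL2L11 (2.54), BCL2 (1.66) and BIK (0.187) were the lowest there. BCL2L1 thus supplied 48.8% of the summed level of the 10 genes in MDA-MB-231 with DMSO and 16.1% in SUM159 with DMSO, whereas BID supplied 4.12% and 19.2%. The 2 lines were normalised separately, so the shares within a library are the firmer comparison between them.

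**Figure D1:**
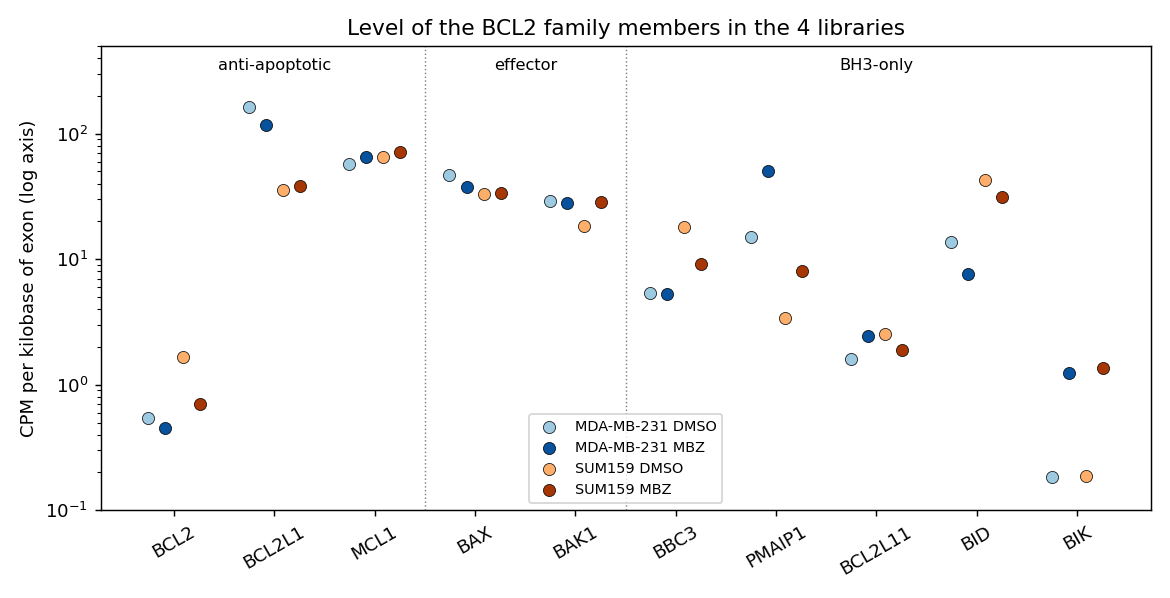
Level of each of the 10 BCL2 family genes (CPM per kilobase of exon, log axis) in the 4 libraries, 1 point per library, ordered by role. BCL2L1 and MCL1 are the highest anti-apoptotic genes in every library and BCL2 the lowest, and BIK goes from 0.185 to 1.23 in MDA-MB-231 and from 0.187 to 1.35 in SUM159.

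The comparison asks which members differ between MBZ and DMSO within a line. Fold changes are log2 differences of CPM, and each is given with the 95% interval that counting error alone allows. In MDA-MB-231, 3 of the 10 members were at least 1.5-fold higher with MBZ (PMAIP1, BIK and BCL2L11) and 1 was at least 1.5-fold lower (BID). Over all 15142 genes with a mean of 10 counts in this line, 18.3% were higher and 15.8% lower by the same rule. In SUM159, 3 members were higher (PMAIP1, BIK and BAK1) and 2 lower (BCL2 and BBC3), against 21.5% and 21.7% of all 15674 genes. PMAIP1 and BIK were higher in both lines, that is, 2 of 10, against 6.12% of the 13733 genes measured in both. BIK reached the mean of 10 counts only through its MBZ libraries, which favours a call as higher, and at a mean of 100 counts the members called higher were 2 in each line. None of the 10 was lower in both lines (4.71% of all genes) or past the threshold in opposite directions (6.04%). BAX, BCL2L1 and MCL1 stayed under 1.5-fold in both lines. Scaling by total counts in place of TMM adds 0.27 to the median over all genes (log2) in MDA-MB-231 and 0.30 in SUM159. It turns the split of all genes to 29.1% higher and 7.57% lower in the former line and to 32.8% and 12.8% in the latter, and no member or listed gene past the threshold changed sign under it. With 10 genes these shares are coarse, and nothing particular to the family is read from them. The median log2 fold change of the 10 members was -0.04 in MDA-MB-231 and 0.05 in SUM159, next to -0.02 and -0.03 for all genes.

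**Figure D2:**
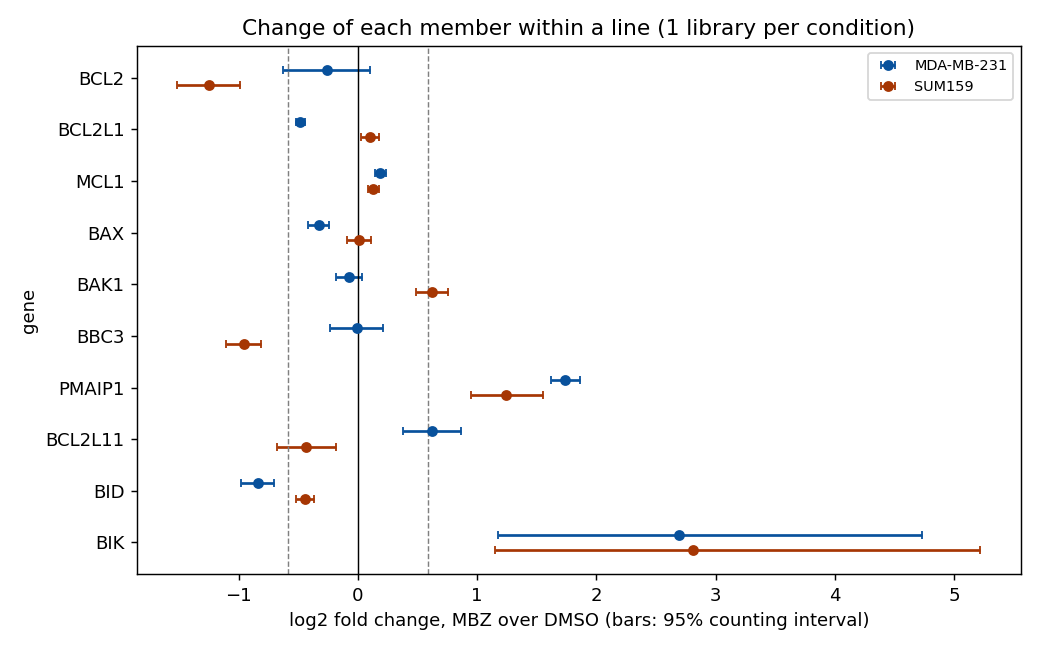
Log2 fold change of MBZ over DMSO for each member in MDA-MB-231 and SUM159, with 1 library per condition; bars are 95% counting intervals and dashed lines mark a 1.5-fold change. PMAIP1 and BIK lie to the right of the dashed line in both lines, BID to the left in MDA-MB-231, and BCL2 and BBC3 to the left in SUM159.

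Among the anti-apoptotic genes, BCL2 was lower with MBZ in SUM159, and neither BCL2L1 nor MCL1 passed 1.5-fold. BCL2 (ENSG00000171791, chr18:63123346-63320128, minus strand, 3 exons in the canonical transcript) is the founding member of the family and keeps BAX and BAK1 in check. It had 156, 108, 353 and 185 counts, or 6.87, 5.75, 20.9 and 8.82 CPM. The SUM159 DMSO library stands above the other libraries. The log2 fold change of BCL2 was -1.25 in SUM159 (interval -1.51 to -0.99) and -0.26 in MDA-MB-231 (-0.63 to 0.11), where the interval spans no change.

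BCL2L1 (ENSG00000171552, chr20:31664452-31723989, minus strand, 3 exons) encodes BCL-XL and, by another splice site, the pro-apoptotic BCL-XS. Its counts were 15528, 9193, 2529 and 3382, which gives 684, 489, 150.1 and 161 CPM. Both MDA-MB-231 libraries lie far above both SUM159 libraries. The log2 fold change was -0.48 (-0.52 to -0.45) in MDA-MB-231 and 0.10 (0.03 to 0.18) in SUM159. The exons of BCL2L1 share 1735 of 4197 bases with the antisense RNA ABALON, which had 484, 228, 27 and 101 counts, and the strand setting of the counting is not given in the sources used here. Reads of the 2 genes may therefore not be fully told apart.

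MCL1 (ENSG00000143384, chr1:150560895-150579738, minus strand, 3 exons) encodes the short-lived protein that NOXA binds. Its level was the most even of the family, with 8131, 7673, 6893 and 9386 counts and 358, 408, 409 and 447 CPM. The log2 fold changes were 0.19 (0.14 to 0.23) in MDA-MB-231 and 0.13 (0.08 to 0.17) in SUM159. The exons of MCL1 share 328 bases with ADAMTSL4-AS1 on the same strand (17, 8, 2 and 7 counts) and 43 bases with ADAMTSL4 on the other strand (65, 138, 1534 and 1160 counts).

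Of the 2 effectors, BAK1 was higher with MBZ in SUM159 and BAX did not pass 1.5-fold in either line. BAX (ENSG00000087088, chr19:48954815-48961798, plus strand, 6 exons) resides mostly in the cytosol until it is activated. It had 2778, 1831, 1455 and 1820 counts, or 122, 97.4, 86.3 and 86.7 CPM. The 2 SUM159 values lie side by side, and the log2 fold change there was 0.0066 with an interval of -0.094 to 0.107. In MDA-MB-231 it was -0.33 (-0.41 to -0.24).

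BAK1 (ENSG00000030110, chr6:33572547-33580293, minus strand, 6 exons) sits in the outer mitochondrial membrane. It had 1471, 1157, 686 and 1314 counts, or 64.8, 61.55, 40.7 and 62.6 CPM. The SUM159 DMSO library is the low one, and the other libraries lie close together. The log2 fold change was 0.62 (0.49 to 0.76) in SUM159, just past the threshold, and -0.07 (-0.19 to 0.04) in MDA-MB-231. The pseudogenes BAK1P1 and BAK1P2 had at most 2 counts in any library.

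PMAIP1 was the BH3-only gene with the firmest difference. PMAIP1 (ENSG00000141682, chr18:59899996-59904305, plus strand, 2 exons) encodes NOXA, which binds MCL1 and speeds its breakdown. It had 748, 2066, 125 and 369 counts, or 32.9, 109.9, 7.42 and 17.6 CPM. The MBZ library is the higher one in each line, although the MBZ level in SUM159 lies below the DMSO level in MDA-MB-231. PMAIP1 was 3.34-fold higher in MDA-MB-231 (interval 3.07 to 3.63, log2 1.74) and 2.37-fold higher in SUM159 (1.93 to 2.93, log2 1.24).

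BIK (ENSG00000100290, chr22:43110750-43129712, plus strand, 5 exons) encodes a BH3-only protein of the endoplasmic reticulum. With DMSO it had 4 counts in MDA-MB-231 and 3 in SUM159, and with MBZ 22 and 27. In CPM these are 0.176, 1.17, 0.178 and 1.29, the lowest levels of the family. The fold was 6.46 in MDA-MB-231 and 7.01 in SUM159, with wide intervals of 2.26 to 26.5 and 2.22 to 37.2. BIK met the minimum of a mean of 10 counts through the MBZ libraries alone, so nothing is supported with its call.

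BCL2L11 and BID passed 1.5-fold in MDA-MB-231 and not in SUM159. BCL2L11 (ENSG00000153094, chr2:111119378-111168444, plus strand, 4 exons) encodes BIM, which binds all anti-apoptotic members. It had 245, 312, 289 and 267 counts, or 10.8, 16.6, 17.1 and 12.7 CPM. The MBZ library of MDA-MB-231 and the DMSO library of SUM159 are the higher ones. The log2 fold change was 0.62 (0.38 to 0.87) in MDA-MB-231 and -0.43 (-0.68 to -0.19) in SUM159. The former fell just short of the threshold at 0.57 with DESeq2 size factors. In SUM159, scaling by total counts gave -0.13, with an interval of -0.375 to 0.116. The exons of BCL2L11 share 727 bases with the antisense RNA MIR4435-2HG, which had 1401, 1063, 952 and 750 counts.

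BID (ENSG00000015475, chr22:17734138-17774770, minus strand, 6 exons) links death receptors to the mitochondrion once caspase-8 has cut it. It had 1379, 638, 3167 and 2901 counts, or 60.7, 33.9, 188 and 138 CPM. Both SUM159 libraries lie above both MDA-MB-231 libraries. Its log2 fold change was -0.84 (-0.98 to -0.70) in MDA-MB-231 and -0.44 (-0.52 to -0.37) in SUM159. With scaling by total counts the former was -0.57, which does not reach 1.5-fold.

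BBC3 (ENSG00000105327, chr19:47220822-47232766, minus strand, 4 exons) encodes PUMA, which binds all anti-apoptotic members. It had 387, 318, 962 and 617 counts, or 17.04, 16.9, 57.1 and 29.4 CPM. The values of the 2 MDA-MB-231 libraries lie side by side, and the SUM159 DMSO library is the highest. The log2 fold change was -0.96 (-1.11 to -0.81) in SUM159 and -0.01 (-0.23 to 0.21) in MDA-MB-231.

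The lines were also compared by the difference of their log2 fold changes, SUM159 minus MDA-MB-231. This difference could not be tested, and its intervals cover counting error only. It was 0.70 for BAK1 (0.52 to 0.87), 0.59 for BCL2L1 (0.50 to 0.67), 0.40 for BID (0.24 to 0.55) and 0.34 for BAX (0.20 to 0.47). It was -1.05 for BCL2L11 (-1.40 to -0.70), -0.99 for BCL2 (-1.44 to -0.54), -0.95 for BBC3 (-1.21 to -0.68) and -0.49 for PMAIP1 (-0.82 to -0.16). For MCL1 the interval of -0.12 to 0.004 spans 0, and for BIK that of -2.61 to 3.03 is too wide to place the lines. BCL2L1 and BCL2L11 were the members whose intervals in the 2 lines lay on opposite sides of 0.

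The pro- to anti-apoptotic balance was taken as the summed level per kilobase of the 7 pro-apoptotic members over that of the 3 anti-apoptotic members in the same library. This ratio does not depend on the scaling between libraries, but it does depend on the gene lengths used. It was 0.509 (0.495 to 0.523) in MDA-MB-231 with DMSO and 0.725 (0.704 to 0.747) with MBZ, and 1.15 (1.11 to 1.18) in SUM159 with DMSO and 1.02 (0.994 to 1.05) with MBZ. The change on the log2 scale was 0.51 (0.45 to 0.57) in MDA-MB-231 and -0.16 (-0.23 to -0.10) in SUM159. Both MDA-MB-231 libraries lie below both SUM159 libraries, and by this sum the lines are closer to each other with MBZ than with DMSO. With equal weight for each gene the change was 0.73 in MDA-MB-231 and 0.75 in SUM159, so the lines did not come closer by that definition.

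In MDA-MB-231 the share of BCL2L1 in the family's summed level was 48.8% with DMSO and 37.0% with MBZ, and that of PMAIP1 was 4.52% and 16.0%. Without PMAIP1, a choice made after the values were seen, the change in this line was 0.0294 on the log2 scale, and without BCL2L1, likewise chosen, it was 0.0498, so the value rests on both genes. The summed level per kilobase was 221 with DMSO and 182.6 with MBZ for the anti-apoptotic genes, and 112.5 and 132 for the pro-apoptotic ones. With the length of the canonical transcript in place of the merged exons, also chosen afterwards, it was 0.27. In SUM159 BID went from 19.2% to 13.9%, BBC3 from 8.09% to 4.11% and BAK1 from 8.31% to 12.6%, while MCL1 supplied 29.7% and 32.0%. When each gene had the same weight, the change in SUM159 was 0.75, that is, of the other sign, and it was 0.35 when BIK, which had 3 counts with DMSO, was left out, a choice made afterwards. A balance of transcripts is not one of proteins, and the ratio has no threshold at which apoptosis starts.

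**Figure D3:**
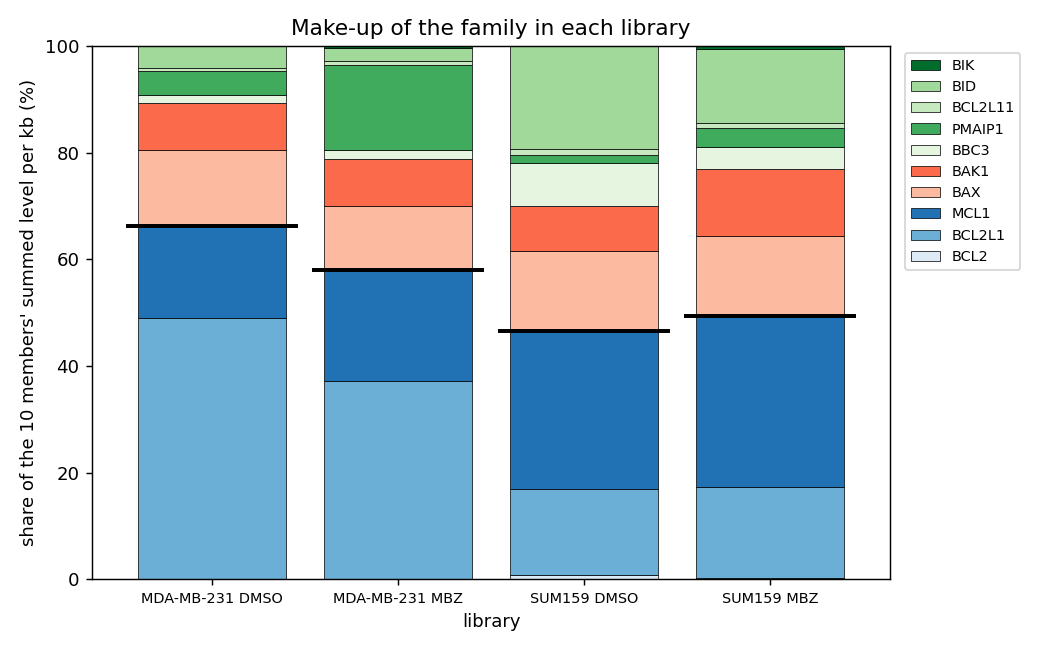
Share of each member in the summed level per kilobase of the 10 genes (%) in the 4 libraries; blue segments are anti-apoptotic genes, red ones effectors and green ones BH3-only genes, and the black bar marks the top of the anti-apoptotic part. The pro-apoptotic part above the bar is 33.7% and 42.04% in MDA-MB-231 with DMSO and MBZ, and 53.4% and 50.6% in SUM159.

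Pairs of proteins known to bind each other were compared as ratios of their levels per kilobase within a library. These pairs were picked with the values known. PMAIP1 to MCL1 went from 0.262 with DMSO to 0.766 with MBZ in MDA-MB-231 and from 0.0516 to 0.112 in SUM159, a log2 change of 1.55 (1.42 to 1.68) and 1.12 (0.82 to 1.42). BAK1 to BCL2L1 went from 0.180 to 0.239 in MDA-MB-231 and from 0.515 to 0.737 in SUM159, a log2 change of 0.41 (0.29 to 0.53) and 0.52 (0.36 to 0.67). These 2 pairs shifted toward the pro-apoptotic gene in both lines. For BAK1 to BCL2L1 the parts differed between the lines. The log2 fold changes of BAK1 and BCL2L1 were -0.07 and -0.48 in MDA-MB-231, and 0.62 and 0.10 in SUM159.

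The other pairs differed between the lines. BAX to BCL2, a ratio often quoted for apoptosis, was 86.8 and 82.7 in MDA-MB-231, a log2 change of -0.07 (-0.44 to 0.31), and went from 20.1 to 48.0 in SUM159, a log2 change of 1.26 (0.97 to 1.54). In SUM159 this came with 0.0066 for BAX and -1.25 for BCL2 on the log2 scale. BBC3 to BCL2L1 changed by 0.47 (0.25 to 0.69) in MDA-MB-231 and by -1.06 (-1.23 to -0.89) in SUM159. BCL2L11 to MCL1 changed by 0.43 (0.18 to 0.68) and by -0.56 (-0.81 to -0.31).

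A change alike in both lines was tested with edgeR's quasi-likelihood test, where the lines take the place of replicates. None of the 10 members reached an adjusted p of 0.05. Over all 16100 genes 1 did (0.00621%), and 1150 had an unadjusted p under 0.05, among them PMAIP1 and BIK. PMAIP1 had a log2 fold change of 1.54 (SE 0.30), an unadjusted p of 0.0015 and an adjusted p of 0.441 in this edgeR test. The SE values here were derived from the log2 fold change and the F statistic of the test, which gives none itself. Over the 4 other fits run, its adjusted p ranged from 0.00618 in edgeR with every gene of at least 1 count to 1.00 in the edgeR model without cell line, with 0.0353 in DESeq2's Wald test and 0.271 in edgeR with RLE normalization. BIK had a log2 fold change of 2.78 (SE 0.80) and an adjusted p of 0.591 in edgeR, and BID one of -0.60 (SE 0.29) and 0.721. DESeq2 called 1 member (PMAIP1) and 96 genes in all.

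Other genes of the pathway were read from lists, by the same 1.5-fold rule, and their counts stand beside the shares over all genes given above (18.3% higher and 15.8% lower in MDA-MB-231, 21.5% and 21.7% in SUM159). Nothing particular to a list is read from counts of this size. Of 12 genes of the wider BCL2 family, 8 were measured in MDA-MB-231, with 1 higher and 1 lower, and 10 in SUM159, with 3 higher and 3 lower. With scaling by total counts these were 2 and 0 in MDA-MB-231, and 5 and 2 in SUM159. Over all genes that scaling gave 29.1% higher and 7.57% lower in MDA-MB-231, and 32.8% and 12.8% in SUM159. BMF, a BH3-only gene, had 157, 241, 1668 and 647 counts and passed the threshold in opposite directions, with a log2 fold change of 0.89 (0.59 to 1.19) in MDA-MB-231 and -1.68 (-1.82 to -1.55) in SUM159. BCL2A1, an anti-apoptotic gene, had no count in either MDA-MB-231 library, which allows up to 0.132 and 0.160 CPM, and had 31 and 148 counts in SUM159, a log2 fold change of 1.94 (1.37 to 2.55). BAD, whose protein binds BCL-XL, was at -0.73 in MDA-MB-231 and -0.31 in SUM159. BNIP3, a gene of mitophagy, was at -0.56 and 0.61. With 7 of these genes added to the balance, its change was 0.23 in MDA-MB-231 and -0.41 in SUM159.

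The next list held 12 genes of mitochondrial release, the apoptosome and inhibitors of apoptosis. Of these, MDA-MB-231 had 1 higher and 2 lower with MBZ, and SUM159 had 4 higher and 1 lower. The same shares of 18.3%, 15.8%, 21.5% and 21.7% over all genes stand beside these counts. With total counts, MDA-MB-231 had 7 higher and 1 lower, and SUM159 had 5 and 0. The shares over all genes with this scaling were 29.1% and 7.57% in MDA-MB-231, and 32.8% and 12.8% in SUM159. BIRC3, which encodes the inhibitor of apoptosis cIAP2, had 359, 1582, 409 and 1616 counts and a log2 fold change of 2.41 (2.25 to 2.58) and 1.67 (1.51 to 1.83). BIRC3's adjusted p for a shared change was 0.327 in the edgeR test above and 0.000689 in DESeq2. In the other edgeR fits it was 1.26e-05 with every gene of at least 1 count, 0.152 with RLE normalization and 1.00 without cell line. BIRC5, which encodes survivin and is transcribed in G2 and M, had 6460, 2362, 416 and 3249 counts, at -1.18 and 2.65 on the log2 scale. It moved as the summed G2 and M genes did, of which 12 of 15 were lower in MDA-MB-231 and 15 of 15 higher in SUM159. With scaling by total counts, 9 of 15 were lower in MDA-MB-231 and 15 of 15 still higher in SUM159. CYCS, the gene of cytochrome c, was at 0.40 and 1.11, and CASP9, the initiator caspase of the apoptosome, at 0.44 and 0.70. APAF1, the scaffold of the apoptosome, lay at -0.42 and 0.48. None of the 7 genes of binding partners and protein turnover passed 1.5-fold in either line, and 1 was higher in each line with total counts.

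Of 8 transcription factors known to act on family genes, MDA-MB-231 had 2 higher and 2 lower with MBZ, and SUM159 had 2 higher and 1 lower, again next to 18.3%, 15.8%, 21.5% and 21.7%. With total counts SUM159 had 2 higher and 0 lower, next to 32.8% and 12.8% of all genes. DDIT3, which encodes the stress factor CHOP, had 255, 1613, 179 and 590 counts and a log2 fold change of 2.93 (2.74 to 3.13) and 1.40 (1.16 to 1.65). Its exons overlap those of neighbouring genes over 39.6% of their length. ATF4, which acts before CHOP in the integrated stress response, was at 0.06 and -0.51. FOXO3, which activates BCL2L11 and BBC3 in other cells, had 924, 1151, 2014 and 1617 counts, at 0.59 (0.46 to 0.72) and -0.63 (-0.73 to -0.54). The former does not pass 1.5-fold with DESeq2 size factors, nor the latter with total counts. E2F1 was at -1.27 and 1.88, the same signs as the change in the summed level of the G2 and M genes. Whether the level of a factor bears on the members was not tested.

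**Figure D4:**
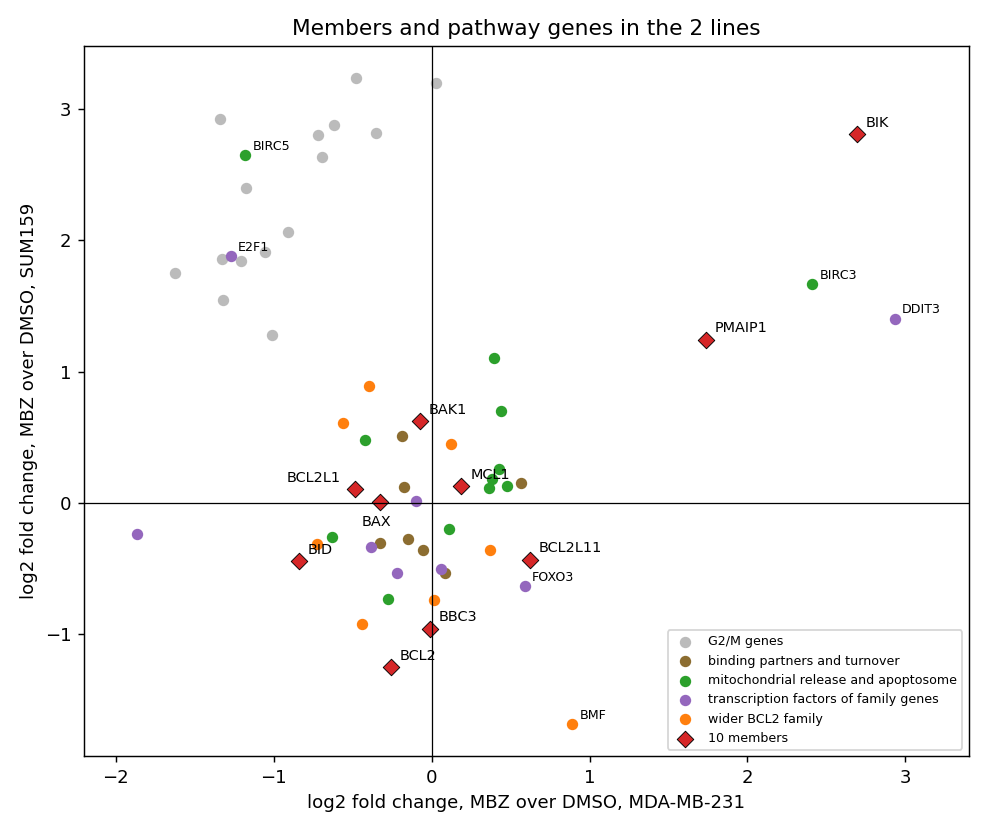
Log2 fold change of MBZ over DMSO in MDA-MB-231 (horizontal) against SUM159 (vertical) for the 10 members (red diamonds) and the listed genes with values in both lines, coloured by list. BIK, PMAIP1, BIRC3 and DDIT3 lie in the upper right, BMF and FOXO3 in the lower right, and BIRC5, E2F1 and the G2 and M genes in the upper left or, for 1 gene, just right of the vertical zero line.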

How the data were processed

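Sequencing of polyadenylated RNA from the 4 cultures gave paired reads of 150 bases. Raw counts per gene were deposited, made by the authors with HTSeq 0.6.1 (union mode) from STAR 2.5 alignments to GRCh38. The submitters' processing notes also list edgeR 3.16.5. The annotation release and strand setting are not given in the sources used here. Every count column was used and no row lacked a gene. Symbols, loci and exons are from GENCODE release 44.

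Fold changes were differences of log2 CPM in edgeR 4.0.16 (R 4.3.3) with TMM factors over the 2 libraries of a line and a prior count of 0.125. A gene was called at a fold of 1.5 and a mean of 10 counts. Fold changes carry 95% Clopper-Pearson intervals for the fraction of reads that the MBZ library gave, with Poisson delta-method intervals for the balance and exact conditional intervals for pairs and line differences. All cover counting error only, and PCR copies counted without molecular identifiers are not separate molecules. The quasi-likelihood test of edgeR was run for shared changes (cell line and treatment, filterByExpr, TMM over 4 libraries, Benjamini-Hochberg), with a common biological coefficient of variation of 0.323, and with DESeq2 1.42.0. The spread in this test is that between lines. Functions were tested on simulated data, where the shared test had to pass only at a coefficient of variation below that of these data.

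The named genes are the 10 members and genes of the lists, which were chosen with earlier results of these data known. Alternatives were other scalings, prior counts, folds, count minimums, test settings and definitions of the balance. Some listed genes are not reported here. Promoters and proteins were not analysed here.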

Additional observations from a re-analysis of the deposited data

Results flagged for a closer look

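For 2 of the 10 members the counting interval lay above 0 in 1 line and below 0 in the other. For BCL2L1 the log2 fold change in SUM159 minus that in MDA-MB-231 was 0.59, from -0.48 in MDA-MB-231 and 0.10 in SUM159. For BCL2L11 the same difference was -1.05, from 0.62 and -0.43. The difference between the lines was not tested, because 1 library per condition leaves no spread between cultures. With scaling by total counts, BCL2L1 had -0.22 in MDA-MB-231 and 0.40 in SUM159, still on opposite sides, whereas the SUM159 interval of BCL2L11 spanned 0 (-0.375 to 0.116).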

How the results depend on the processing

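The number of members called higher stayed at 2 or 3 in each line under every setting run. The 1 member lower in MDA-MB-231 (BID) became 0 with scaling by total counts and 0 at a fold of 2, and the 2 lower in SUM159 became 1 at a fold of 2. Of the members and listed genes past 1.5-fold, 6 of 28 in MDA-MB-231 and 4 of 39 in SUM159 no longer passed with scaling by total counts. Under this scaling the uncalled values of BCL2, BAK1 and BBC3 in MDA-MB-231 became 0.0079, 0.19 and 0.25, and BBC3 was 0.0068 there with TMM over 4 libraries. The change of the balance in MDA-MB-231 (0.51) was 0.34 without division by length, 0.73 with genes of equal weight, 0.23 with the wider family, 0.72 without MCL1, 0.81 without BAX, and, chosen after seeing the data, 0.0294 without PMAIP1, 0.0498 without BCL2L1, 0.37 with equal weights without BIK and 0.27 with canonical transcript lengths. In SUM159 (-0.16) it was -0.28 without division by length, 0.75 with genes of equal weight, -0.41 with the wider family, and, chosen after seeing the data, 0.35 with equal weights without BIK and -0.23 both without PMAIP1 and with canonical lengths. It kept its side of 0 at -0.12 without MCL1, -0.19 without BAX and -0.17 without BCL2L1. Members with a shared change numbered 0 in edgeR's quasi-likelihood test, 1 with every gene of at least 1 count and 1 with DESeq2's Wald test. Beyond what the construction of each setting shows, the cause was not tested. Genes called over all features in the shared test numbered 1, 298 with every gene of at least 1 count (of 32295), 96 with DESeq2 and 0 in the model without cell line, where 147 had an unadjusted p under 0.05. With a prior count of 2, BIK was at 2.22 and 2.30. The groups share only 1 replicate number, so no block by that number could be fitted, while cell line was a term of the shared test. Depth limits BIK most, with 3 and 4 counts in the DMSO libraries, and no library could be left out because each condition has only 1.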
